A study of Mus musculus with 17 samples.

Results

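Haemoglobin RNA in brain nuclei was followed through the 4 adult globin genes of the mouse, Hba-a1, Hba-a2, Hbb-bs and Hbb-bt, which were 4 of the 26131 genes counted. They were picked by name, and their levels by animal, cell type label, treatment and batch belong to what chose them, so those levels are given as a description. The nuclei, 284074 in all, came from frozen posterior brain of female mice aged 2.3 months, in 17 libraries that are called animals here although the labels do not tie each to its own mouse. They were stained with DAPI, sorted and read by a droplet method. Both copies of the transferrin receptor (TfR) locus carried a human TfR knock-in in every group, saline included. The saline group held 4 libraries, whose dose field reads 50 mg per kg like that of the conjugates and was not used. Another 4 received Malat1 ASO, a free antisense oligonucleotide against the nuclear RNA Malat1, at 2 mg per kg, a dose matched for oligonucleotide. A further 6 received anti-TfR:Malat1, the oligonucleotide joined to an antibody against TfR, and 3 received OTV:Malat1, which carries it on a TfR-binding transport vehicle, both at 50 mg per kg. The 4 doses were given intravenously over 24 days, and the brains were collected 72 hours later.

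Haemoglobin carries oxygen as a tetramer of 2 alpha and 2 beta chains, each holding a haem. Its genes are switched on in erythroid cells, where the erythroid factors GATA1 and KLF1 act on their promoters and enhancers. A mature mammalian red cell has no nucleus, but young red cells in blood, the reticulocytes, still hold globin mRNA. Capillaries run through the whole brain, and the sources used here do not say whether the blood was washed out before freezing. In droplet methods RNA that floats in the suspension is captured together with the nuclei, and low globin levels have also been described in brain cells themselves. The values below bear on where these RNA molecules were found. Their origin was not tested.

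The alpha genes lay on chromosome 11 and the beta genes on chromosome 7 of the mouse build GRCm38, each with 3 exons and 2 introns in the GENCODE annotation. Hba-a1 spanned 32283511 to 32284465 and Hba-a2 32296489 to 32297298 on the plus strand, with 12023 bases between them. Hbb-bs spanned 103826534 to 103828096 and Hbb-bt 103812524 to 103813996 on the minus strand, 12537 bases apart. All 4 matched the RefSeq promoter table (GRCm38.p6). The 100 bases before the RefSeq start site of 1 gene of each pair are shown. Those of Hba-a1 and Hbb-bt overlap first exons of GENCODE models more and are not printed. The letters CCAAT, as in a CAAT box, are in capitals. Also in capitals are CACCC, letters of the kind that factors of the KLF1 family bind, and ATATAA, as in a TATA box. These are matches of letters and not tested sites.
Hba-a2, chr11:32296392-32296491, plus strand: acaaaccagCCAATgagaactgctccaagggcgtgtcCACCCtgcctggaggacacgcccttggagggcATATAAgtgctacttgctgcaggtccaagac
Hbb-bs, chr7:103827929-103828028, minus strand: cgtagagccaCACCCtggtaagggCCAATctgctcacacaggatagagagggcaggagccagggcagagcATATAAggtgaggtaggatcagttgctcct
Searched on both strands, ATATAA occurred in 4 of 4 members, against 3.74% of 32851 RefSeq promoters of the same 100 bases. The letters CCAAT occurred in 4 of 4 and in 18.9% of all promoters, and CACCC occurred in 4 of 4 and in 27.2%. GATAA occurred in 0 of 4 and in 8.55% of all promoters. The Hbb-bs stretch lies directly before the first exon of the main GENCODE transcript but within the gene span given above, because another GENCODE model of the gene starts further upstream, and the last 3 bases of the Hba-a2 stretch lie within its span. None of these letters overlapped another in the members shown. The order differed between the chains, with CCAAT upstream of CACCC in Hba-a2 and CACCC upstream of CCAAT in Hbb-bs.

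The members of a pair are near-identical copies, which limits how far their counts can be told apart. The coding sequences of Hba-a1 and Hba-a2 differed at 1 of 426 bases and those of Hbb-bs and Hbb-bt at 1 of 441. Of the 90-base windows of the Hba-a1 transcript, 58.9% occurred unchanged in Hba-a2, and 63.3% of those of Hbb-bs occurred in Hbb-bt. The sources used here do not say how reads that match both copies were counted. The split within a pair is therefore uncertain, while the alpha and beta chains, 60.2% identical, shared no such window.

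The whole table held 1099241149 unique molecular identifiers (UMIs, counted RNA molecules), with 13841 to 18365 nuclei and 55393588 to 79866411 UMIs per animal. The median per nucleus was 2894 to 4052 UMIs by animal. The defining markers of the deposited labels were highest in their own label for all 5 neuronal, 5 oligodendrocyte, 5 astrocyte, 5 microglial and 4 perivascular macrophage genes, and all 20 endothelial, mural and fibroblast-like genes were highest in the vascular label. Malat1, the targeted RNA, stood at 33422 to 43491 CPM (UMIs per 1000000 UMIs) in OTV:Malat1, below every saline animal (46498 to 80907), and the ranges of Malat1 ASO (45998 to 76041) and anti-TfR:Malat1 (46373 to 72220) overlapped saline. Of 273792 distinct nucleus barcodes, 10044 (3.67%) occurred in more than 1 library.

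Haemoglobin RNA was rare. The 4 genes together gave 3034 UMIs, or 2.76 CPM, in 2128 nuclei (0.749% of all). Hbb-bs, the more abundant beta gene, gave 1655 UMIs (54.5% of the haemoglobin UMIs, 1.51 CPM), and 15108 genes had more. Hba-a1 gave 609 (20.1%), Hba-a2 507 (16.7%) and Hbb-bt 263 (8.67%). Divided by transcript length, the values were 2.40 CPM per kilobase for Hbb-bs, 0.833 for Hba-a2, 0.793 for Hba-a1 and 0.340 for Hbb-bt. Hbb-bs took 55.0% of that sum, and the order of the alpha genes was reversed. Since UMIs count molecules whatever their length, and the split within a pair is uncertain, no order of the alpha genes is read from these values. The haemoglobin UMIs fell into 2 unlike sets. Nearly all positive nuclei held 1 UMI (2059 nuclei), 55 held 2 and 8 held 3 to 6. The remaining 6 nuclei held 12 to 428 each and together 833 UMIs, 27.5% of the total. A line at 10 haemoglobin UMIs was therefore drawn, with 6 UMIs in the nucleus just below it and 12 in the one just above. The nuclei below it held 2201 UMIs, 7.75 per 1000 nuclei. Among them 63 had 2 or more UMIs, against 18.7 expected if each animal's UMIs fell on its nuclei at random.

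The level differed widely between animals of one treatment. In saline the summed haemoglobin level was 0.172, 0.759, 5.74 and 9.64 CPM in replicates 1 to 4. In Malat1 ASO it was 1.35, 0, 1.07 and 2.63 CPM. In anti-TfR:Malat1 it was 1.80, 0.263, 1.35, 0.180, 0.470 and 6.84 CPM, and in OTV:Malat1 0.759, 14.8 and 0.848 CPM. Animals with little haemoglobin RNA and animals with much of it thus stood side by side in 3 of the 4 groups, and the highest, OTV:Malat1 2, exceeded the lowest animal above 0 by 86.0-fold, or 46.8-fold without the 6 nuclei. The 4 highest animals, in 3 groups, held 76.0% of the haemoglobin UMIs. Malat1 ASO 2 had none in 16703 nuclei and 65052333 UMIs, which allows a level of up to 0.0461 CPM and a share of up to 0.0180% of nuclei with a UMI, with 3 counts as the limit and for counting error only. It sets no limit on the share of nuclei that hold the RNA.

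**Figure D1:**
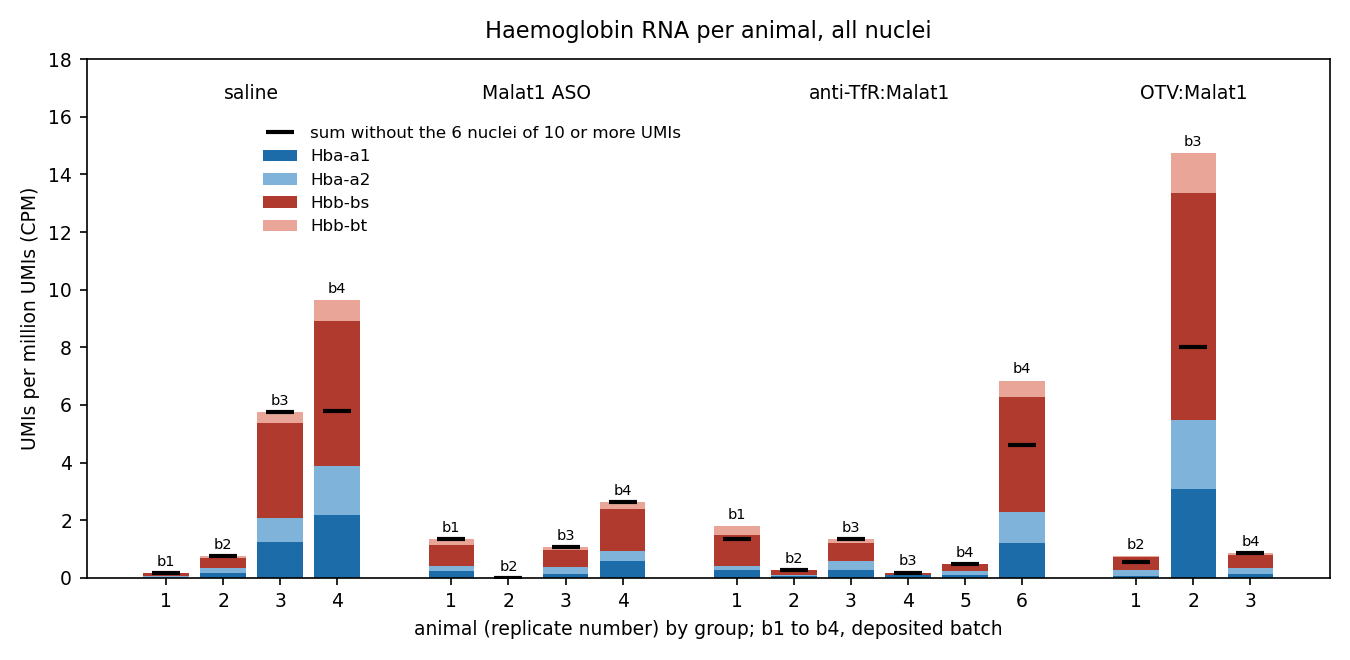
Haemoglobin RNA per animal in CPM, stacked by gene, with animals as bars grouped by treatment and the deposited batch written above each bar as b1 to b4. Black dashes give the sum without the 6 nuclei of 10 or more haemoglobin UMIs. Saline 3 and 4, anti-TfR:Malat1 6 and OTV:Malat1 2 stand between 5.74 and 14.8 CPM, and the other 13 animals lie at 2.63 CPM or less.

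Hbb-bs showed the pattern gene by gene. It stood at 0.100, 0.337, 3.27 and 5.01 CPM in saline and at 0.724, 0, 0.610 and 1.46 CPM in Malat1 ASO. In anti-TfR:Malat1 it stood at 1.08, 0.150, 0.655, 0.0819, 0.228 and 4.01 CPM, and in OTV:Malat1 at 0.445, 7.89 and 0.433 CPM. The saline range held 3 of the 4 Malat1 ASO, 5 of the 6 anti-TfR:Malat1 and 2 of the 3 OTV:Malat1 animals. Hba-a1 was at 0 in 2 animals and reached 3.08 CPM, Hba-a2 was at 0 in 2 and reached 2.39 CPM, and Hbb-bt was at 0 in 5 and reached 1.38 CPM, each highest in OTV:Malat1 2. The 4 genes rose and fell together over the 17 animals, with Pearson's r between pairs of genes from 0.954 to 0.984, a description over libraries that share their depth and, within a pair, their reads. The share of nuclei with a haemoglobin UMI followed the level: 0.0793%, 0.311%, 1.97% and 2.02% in saline, 0.190%, 2.69% and 0.278% in OTV:Malat1, 0.517%, 0%, 0.391% and 0.914% in Malat1 ASO, and 0.0641% to 1.89% in anti-TfR:Malat1.

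No treatment contrast of a haemoglobin gene passed the test. The summed level averaged 5.45 ± 8.05 CPM (SD, n = 3) in OTV:Malat1 and 4.08 ± 4.47 CPM (SD, n = 4) in saline. In anti-TfR:Malat1 the mean was 1.82 ± 2.54 CPM (SD, n = 6) and in Malat1 ASO 1.26 ± 1.08 CPM (SD, n = 4), where alone the SD was below its mean. Single animals set these means, which fell to 0.804 CPM without OTV:Malat1 2, 2.22 without saline 4, 0.814 without anti-TfR:Malat1 6 and 0.805 without Malat1 ASO 4. UMIs were summed per animal, and edgeR's quasi-likelihood test was fitted to all 21375 genes that passed its filter, the 4 members among them. It called 0 of 4 members in each of the 4 comparisons (Benjamini-Hochberg adjusted p of 0.997 or more), and also 0 genes of all tested in each (percent called 0). At an unadjusted p under 0.05 it gave 0 of 4 members in each comparison, against 129 genes for Malat1 ASO, 258 for anti-TfR:Malat1 and 237 for OTV:Malat1, each compared with saline, and 345 between the 2 conjugates. DESeq2 called 0 of 4 members in each as well, and of all genes 0.00468% (1 gene) for OTV:Malat1 compared with saline and 0% in the other 3 comparisons.

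For Hbb-bs the log2 differences in that edgeR fit were -1.65 (SE 1.23) for Malat1 ASO, -1.08 (SE 1.05) for anti-TfR:Malat1 and 0.30 (SE 1.21) for OTV:Malat1 when each was set against saline. For OTV:Malat1 relative to anti-TfR:Malat1 it was 1.38 (SE 1.11). The other 3 genes lay from -1.90 to -1.10, from -1.40 to -0.79, from 0.20 to 0.72 and from 1.51 to 1.60 in the same comparisons. Those against saline share the saline animals. Without OTV:Malat1 2 both comparisons of OTV:Malat1 changed sign for all 4 genes, to -2.34 for Hbb-bs when set against saline and to -1.26 when set against anti-TfR:Malat1. An exact two-sided permutation of the animals on log2(CPM + 1) gave p from 0.286 to 0.914 over the 16 gene and comparison pairs. The smallest p it can give is 0.0286, 0.00952, 0.0571 and 0.0238 in the 4 comparisons in that order.

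The deposited metadata named 4 batches, whose meaning the sources used here do not state. Batches 3 and 4 held 48.7% and 40.8% of the haemoglobin UMIs, and batches 1 and 2 held 6.46% and 3.99%. Batches 1 to 4 held 3, 4, 5 and 5 animals. The summed level of single animals ran from 0.172 to 1.80 CPM in batch 1 and from 0 to 0.759 in batch 2. It ran from 0.180 to 14.8 CPM in batch 3 and from 0.470 to 9.64 in batch 4, so low animals stood in these batches too. Within a batch the treatments went both ways. The log2 ratio of Hbb-bs in Malat1 ASO over that in saline came to 2.85 for batch 1, to -2.42 for batch 3 and to -1.78 for batch 4. In batch 2 the Malat1 ASO animal was at 0, with 0.337 CPM in saline. In anti-TfR:Malat1 to saline it was 3.43, -1.17, -3.15 and -1.24 in batches 1 to 4, and in OTV:Malat1 to saline 0.40, 1.27 and -3.53 in batches 2 to 4. In OTV:Malat1 to anti-TfR:Malat1 it was 1.57, 4.42 and -2.29 in batches 2 to 4. Batch 1 held no OTV:Malat1 animal. Each of these ratios rests on 1 or 2 animals a side. With labels moved only within batches, the exact permutation gave p from 0.111 to 1.00. Its smallest possible p is 0.125, 0.0556, 0.25 and 0.111 in the 4 comparisons, so it could not pass 0.05 in any.

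Outside the 6 nuclei, 5 of the 7 deposited cell type labels held 6.03 to 7.81 haemoglobin UMIs per 1000 nuclei. Neurons held 7.81 per 1000 nuclei (95% exact Poisson interval 7.42 to 8.21, 1509 UMIs) and oligodendrocytes, the myelin-forming glia, 7.44 (6.84 to 8.08, 560 UMIs). Microglia, the resident macrophages, held 6.04 (4.50 to 7.94, 51 UMIs), astrocytes 6.03 (4.07 to 8.61, 30 UMIs) and perivascular macrophages 7.61 (2.47 to 17.8, 5 UMIs). The vascular label held 35.2 (25.5 to 47.4, 43 UMIs) and lay above all of these. The Glia label, with 225 nuclei and 3 UMIs, gave 13.3 (2.75 to 39.0). The intervals cover counting error only.

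**Figure D2:**
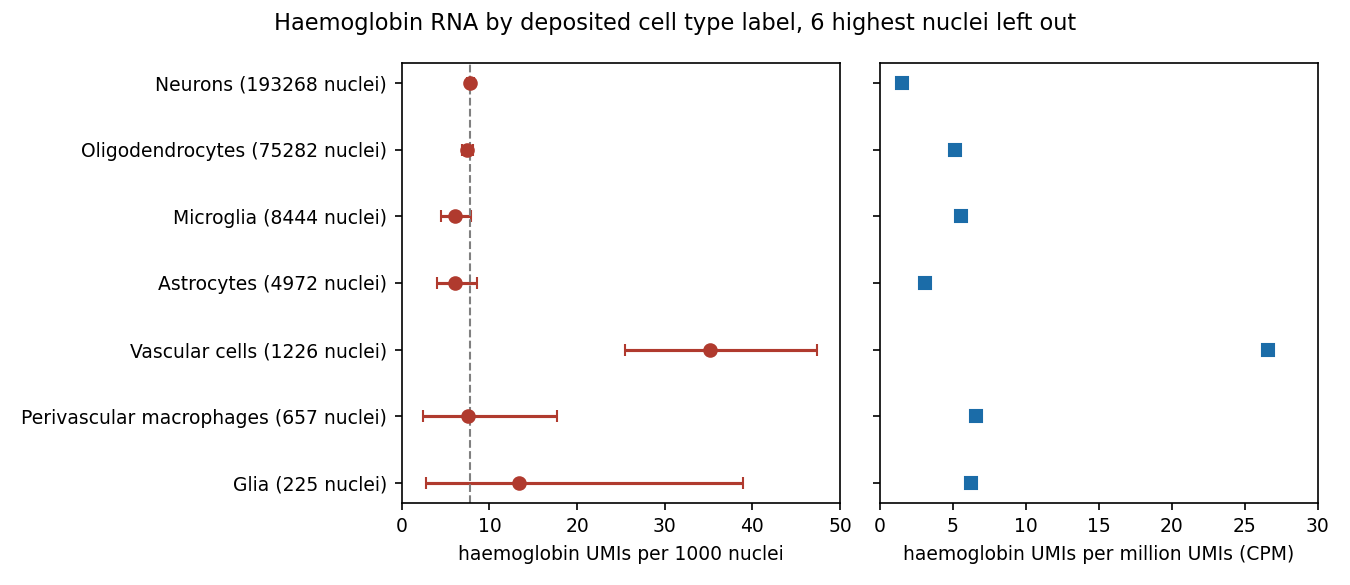
Haemoglobin UMIs per 1000 nuclei with 95% exact Poisson intervals (left, dashed line at the neuron value) and per 1000000 UMIs (right) for each deposited label, without the 6 highest nuclei. Per nucleus 5 labels lie between 6.03 and 7.81 and the vascular label at 35.2, whereas per 1000000 UMIs neurons are lowest at 1.56.

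Per 1000000 UMIs the order was different, because the labels differ in depth. Neurons had a median of 4614 UMIs and oligodendrocytes 1279, and their haemoglobin levels were 1.56 and 5.19 CPM. Microglia (median 1004 UMIs) stood at 5.61 CPM, astrocytes (1800) at 3.09 and the vascular label (1100) at 26.6. Share and level also parted. A haemoglobin UMI was found in 0.761% of neurons and 0.715% of oligodendrocytes, and after thinning each nucleus to 500 UMIs, with none left out, in 0.115% and 0.306%. In edgeR, with animal as block and neurons as reference, 2 of the 4 members passed the low-count filter. Oligodendrocytes differed from neurons by a log2 of 1.45 (SE 0.28) for Hba-a1 and 1.49 (SE 0.25) for Hbb-bs on the scale of total UMIs. A fit on the scale of the number of nuclei, chosen after seeing the data, also dropped the filter and so held all 4 members. There Hba-a1 stood at -0.12 (SE 0.25), Hbb-bs at -0.10 (SE 0.22) and Hbb-bt at -0.07 (SE 0.33) in oligodendrocytes. The median of all genes was -1.80 in that fit, against -0.41 on total UMIs without the filter and -0.07 with it. Hba-a2 turned direction with the scale in oligodendrocytes, since it was called lower than in neurons here (-0.76, SE 0.30, edgeR adjusted p = 0.0131) and higher on total UMIs without the filter (0.76, SE 0.32, edgeR adjusted p = 0.0265). In microglia Hba-a2 was also called lower on the number of nuclei (-1.90, SE 0.88, edgeR adjusted p = 0.0411), but on only 3 UMIs in 8444 nuclei. There total UMIs without the filter gave -0.46 (edgeR adjusted p = 0.742). On the number of nuclei all 4 genes were called higher in the vascular label, or 3 of the 4 without the 6 nuclei. Of all 26065 genes 92.1%, 81.7% and 61.0% were called in these 3 labels. Over 6 labels and on the first scale, 5 pairs of a haemoglobin gene and a label were called against neurons: both genes in oligodendrocytes and in the vascular label, and Hbb-bs in microglia. Of all 13257 genes tested, 89.8% were called in oligodendrocytes, 84.4% in microglia, 76.0% in astrocytes, 66.5% in the vascular label, 58.6% in perivascular macrophages and 35.8% in the Glia label, and nothing is read from the calls.

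Animals high in neurons were also high in oligodendrocytes. Over the 17 animals the neuron rate ran from 0 to 27.8 UMIs per 1000 nuclei and the oligodendrocyte rate from 0 to 27.6, with r = 0.989 as a description, since both come from the same libraries. In OTV:Malat1 2 the rates were 27.8 and 27.6, in saline 4 they were 20.6 and 19.3, and in saline 3 they were 19.4 and 21.4. In Malat1 ASO 2 both were 0. Set against the neuron rate of each animal, oligodendrocytes held 0.922 times the UMIs expected from their number of nuclei (95% interval 0.847 to 1.00), microglia 0.817 (0.608 to 1.07), astrocytes 0.751 (0.507 to 1.07) and perivascular macrophages 0.878. The vascular label held 4.35 times the expected number (3.15 to 5.86), 43 UMIs against 9.89.

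The number of haemoglobin UMIs per nucleus hardly followed the depth of the nucleus. Nuclei of 500 to 1000 UMIs held 8.24 per 1000 (7.27 to 9.30), those of 4000 to 6000 held 7.50 (6.82 to 8.23) and those of 8000 or more held 8.58 (7.48 to 9.80). From the shallowest to the deepest bin the median depth rose 11.6-fold and haemoglobin per nucleus 1.04-fold, while its CPM fell from 10.2 to 0.853. Other RNAs set beside it were chosen after seeing the data. Malat1, made in the nuclei themselves, rose 12.3-fold over the same bins, Meg3, a neuronal nuclear RNA, 127-fold and the mitochondrially encoded RNAs 6.09-fold. Ttr, which is made by the choroid plexus, rose 1.32-fold. The bins differ in cell type, since 18534 of the 31789 nuclei in the shallowest were labelled oligodendrocytes and 25356 of the 25396 in the deepest neurons. Within neurons alone Meg3 rose 69.9-fold, Malat1 12.9-fold and the mitochondrially encoded RNAs 6.56-fold, and within oligodendrocytes, over their narrower range of depth, 3.06-fold, 8.70-fold and 2.46-fold. Within neurons alone haemoglobin per nucleus changed 0.955-fold over a 12.6-fold range of depth. Within oligodendrocytes it changed 0.549-fold over a 5.40-fold range, where the deepest bin rests on 3 UMIs and the other 3 bins stood at 7.30 to 7.55 per 1000. Counted against the rates of each animal, the deepest bin held 1.28 times the expected UMIs and the other 5 bins 0.934 to 1.07 times.

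**Figure D3:**
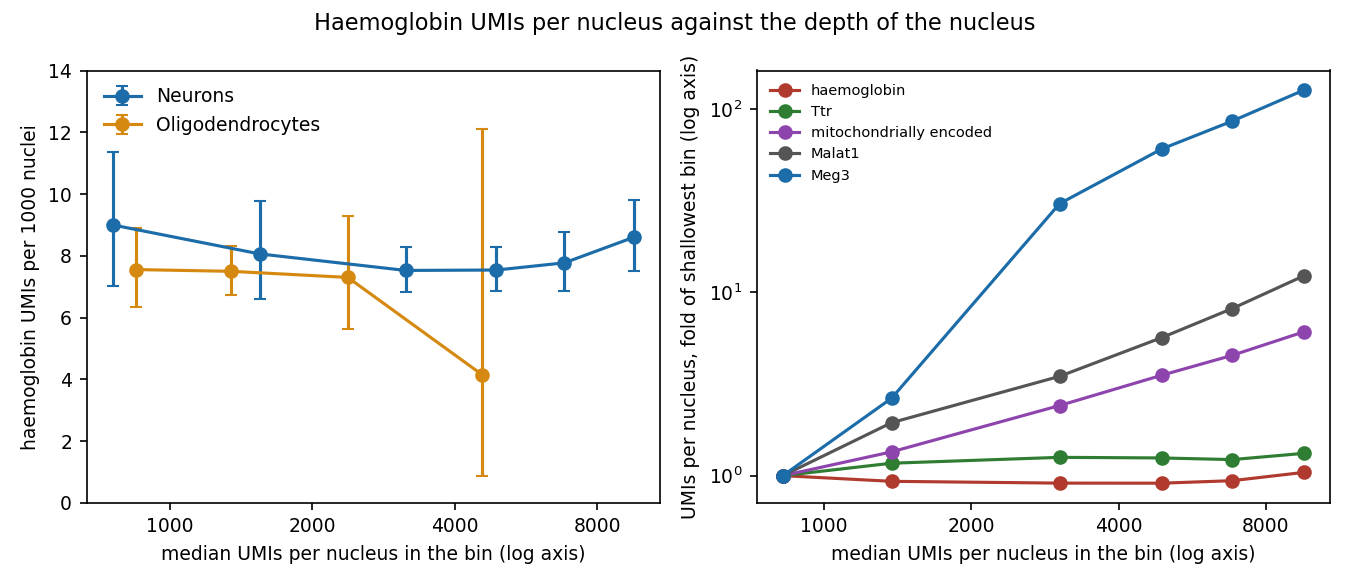
Left, haemoglobin UMIs per 1000 nuclei against the median depth of bins of nuclei (log axis) in neurons and oligodendrocytes, with 95% exact Poisson intervals. Right, UMIs per nucleus of 5 RNAs or groups relative to the shallowest bin (both axes log). Haemoglobin changes 1.04-fold over an 11.6-fold range of depth, Ttr 1.32-fold and Malat1 12.3-fold.

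Ttr lay between 86.8 and 109 UMIs per 1000 nuclei in 6 of the 7 labels. It stood at 93.0 UMIs per 1000 nuclei in neurons, 91.3 in oligodendrocytes, 93.7 in microglia, 106 in astrocytes, 109 in the vascular label and 86.8 in perivascular macrophages. In the Glia label it stood at 5747. The label with the most haemoglobin per nucleus was the vascular one.

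Hbb-bs was the most frequent of the 4 genes in each label and animal with 30 or more haemoglobin UMIs. Outside the 6 nuclei Hbb-bs made up 56.3% of the haemoglobin UMIs (95% exact binomial interval 54.2 to 58.4), Hba-a1 19.1% (17.5 to 20.8), Hba-a2 15.9% (14.4 to 17.5) and Hbb-bt 8.63% (7.49 to 9.88). Of the 13 animals with 30 or more haemoglobin UMIs, the interval held the pooled share in 13 for Hba-a1, Hbb-bs and Hbb-bt and in 11 for Hba-a2. Of the 5 labels with as many, it did so in 5 for Hba-a1 and Hbb-bt and in 4 for Hba-a2 and Hbb-bs. The exception in both was the oligodendrocyte label, with Hba-a2 at 12.1% (9.55 to 15.1) against 17.7% in neurons and Hbb-bs at 61.1% (56.9 to 65.1) against 54.7%. Both beta chains together made up 65.0% (62.9 to 67.0) outside the 6 nuclei and 58.6% (55.2 to 62.0) within them, where single nuclei ran from 50.8% to 83.3%. The second interval treats the UMIs of 6 nuclei as independent, although 428 of the 833 were in 1 nucleus. No difference in chain share is therefore read from these 2 intervals. By animal, outside the 6 nuclei, the interval held the pooled beta share in 12 of 13, and anti-TfR:Malat1 1 lay above it at 76.9% (66.0 to 85.7). By label the interval did so in 4 of 5. The oligodendrocyte label lay above the pooled share at 69.3% (65.3 to 73.1), with 63.4% in neurons.

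**Figure D4:**
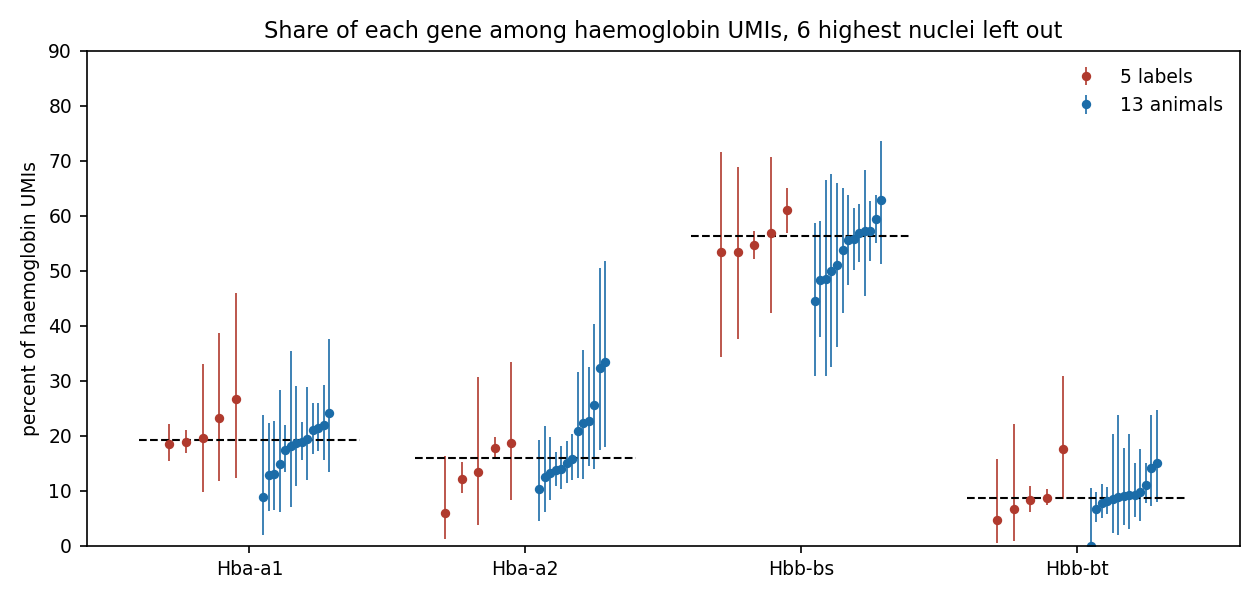
Percent of haemoglobin UMIs from each gene, without the 6 highest nuclei, in the 5 labels (red) and 13 animals (blue) with 30 or more haemoglobin UMIs. Points are shares, bars are 95% exact binomial intervals and dashed lines are the pooled shares. Hbb-bs leads in every label and animal shown, at 44.4% to 62.8%.

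The 6 nuclei above the line of 10 UMIs fell in 5 animals of 3 groups. None shared its barcode with another library, and the deposited doublet calls gave all 6 as single. In the first, from OTV:Malat1 2, 428 of 1981 UMIs (21.6%) were haemoglobin, with 199 of Hbb-bs, 100 of Hba-a1, 82 of Hba-a2 and 47 of Hbb-bt. The second, from anti-TfR:Malat1 6, had 152 of 2657 (5.72%). Saline 4 gave the next 2 nuclei, with 132 of 2619 (5.04%) and 83 of 2782 (2.98%). These 4 nuclei carried the vascular label and held 795 of the 833 UMIs. The fifth, from anti-TfR:Malat1 1, was labelled an oligodendrocyte and had 26 of 3193 (0.814%), and the sixth, from OTV:Malat1 1, was labelled a neuron and had 12 of 500 (2.40%).

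The 4 vascular nuclei carried endothelial RNA in number. They held 42, 42, 45 and 34 UMIs of the endothelial list, from 5, 5, 7 and 7 of its 7 genes. Ly6c1, a surface protein of endothelium, was the most frequent of these in the first 2, with 17 and 15 UMIs. In the next it shared 8 UMIs with Cldn5, a tight junction protein, Flt1, a VEGF receptor, and Mecom, a transcription factor, and in the last Flt1 led with 10. The mural list gave 2, 19, 23 and 19 UMIs. Erythroid markers other than globins were few, with 2 UMIs in the first nucleus, both of Alas2, the erythroid form of the first enzyme of haem synthesis, and 0 in the other 3. The platelet and neutrophil lists gave 0 in all 6.

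**Figure D5:**
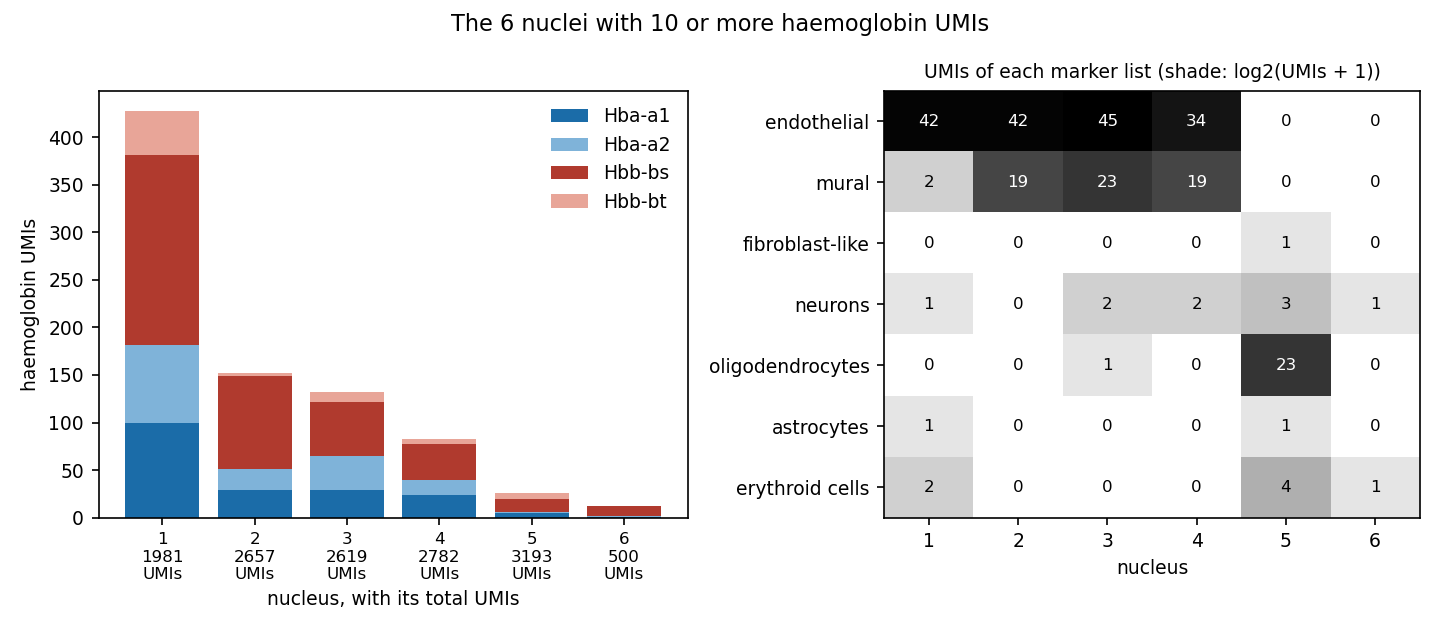
Left, haemoglobin UMIs of the 6 nuclei with 10 or more, stacked by gene, with the total UMIs of each nucleus below its number. Right, UMIs of 7 marker lists in the same nuclei, shaded by log2(UMIs + 1). Nuclei 1 to 4 hold 34 to 45 endothelial UMIs, nucleus 5 holds 23 oligodendrocyte UMIs, and nucleus 6 holds at most 1 UMI of any list.

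The 2 remaining nuclei looked different, and their leading genes were named after their values were seen. In the sixth the most frequent included March3 (16 UMIs), Specc1 (13), Xpo7 (13), Epb41 (12), Ube2h (12), Tfdp2 (7) and Tmem131l (6). Epb41 encodes a protein of the red cell membrane skeleton and Xpo7 a nuclear export receptor, both known to be abundant in maturing erythroid cells. The listed erythroid markers gave 1 UMI there, from 1 of 7 genes, and the neuronal list gave 1. The fifth nucleus held 23 UMIs from 5 of 5 oligodendrocyte genes, 4 UMIs of erythroid markers, and 13 UMIs of Xpo7 and 11 of Tmem131l.

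The vascular excess outside the 6 nuclei was uneven. Of its 43 UMIs, 17 came from saline 4, 9 from saline 3, 6 from OTV:Malat1 2, 4 each from anti-TfR:Malat1 6 and OTV:Malat1 1, 2 from Malat1 ASO 1 and 1 from Malat1 ASO 3. The other 10 animals had none. Without saline 4 the ratio to the number expected was 3.15 (2.06 to 4.61), and without each other animal in turn it was 4.01 to 4.69. The animal with most is the one with 2 of the 4 vascular nuclei above the line. Divided by their leading marker list, 184 endothelial nuclei held 87.0 UMIs per 1000 (49.7 to 141), 596 fibroblast-like nuclei 36.9 (23.1 to 55.9) and 395 mural nuclei 12.7 (4.11 to 29.5). The endothelial value rests on 16 UMIs in 6 nuclei.

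Treatment contrasts within labels passed no test for any member that could be fitted. In neurons all 4 genes were tested, in oligodendrocytes Hba-a1 and Hbb-bs, and in the vascular label all but Hbb-bt, while none passed the filter in microglia, astrocytes or perivascular macrophages. In neurons edgeR called 0 of 4 in each comparison (percent called 0), with 0 of 4 at an unadjusted p under 0.05 and 131 to 443 of all 20906 genes. In oligodendrocytes it called 0 of 2 (percent called 0 for Malat1 ASO and anti-TfR:Malat1 and 0.0208 for OTV:Malat1, each compared with saline, and 0.00694 between the 2 conjugates), with 0 of 2 at an unadjusted p under 0.05 and 148 to 424 of all 14419 genes. In the vascular label it called 0 of 3 (percent called 0). At an unadjusted p under 0.05 it gave 3 of 3 members and 142 of all 3312 genes for Malat1 ASO compared with saline, 2 members and 143 genes between the 2 conjugates, and 0 members in the other 2 comparisons. These values rest on single nuclei. Of the 434 vascular haemoglobin UMIs of OTV:Malat1 2, 428 were in 1 nucleus, of the 156 of anti-TfR:Malat1 6, 152 were in 1, and saline 4 fell from 232 to 17 without its 2. Without the nuclei above the line, a setting chosen after seeing the data, 0 of the 4 members passed the filter in the vascular label.

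Genes that work with haemoglobin were measured beside it. Of the 88 genes listed for globins, haem, erythroid cells, clearance, other blood cells, choroid plexus and mitochondria, 79 were in the files and 54 passed the filter, and edgeR found 0 that rose and 0 that fell in each comparison over all nuclei. At an unadjusted p under 0.05 there were 0 for Malat1 ASO, 1 for anti-TfR:Malat1 and 2 for OTV:Malat1, each compared with saline, and 0 between the 2 conjugates. Among the other globins Cygb, cytoglobin, was highest at 8.70 CPM, followed by the neuronal globin Ngb at 1.60 and myoglobin, Mb, at 0.783, so Cygb exceeded the 4 haemoglobin genes together in CPM not scaled for length. Of the haem synthesis genes Fech, which inserts the iron, stood at 39.5 CPM, Cpox at 37.3 and Alas2 at 17.4. Of the membrane and enzyme genes Ank1, ankyrin, stood at 71.8 CPM, Bpgm at 17.9 and the mitochondrial iron importer Slc25a37 at 15.9.

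Genes that mark red cells alone were nearly absent. Slc4a1, the red cell anion exchanger, gave 4 UMIs in all nuclei, Epb42 22, Kel 12 and the factor Nfe2 3. The regulators Tal1, Epor and Klf1 stood at 2.76, 1.71 and 0.154 CPM. Of the genes that clear haemoglobin and haem, the haemopexin receptor Lrp1 stood at 72.1 CPM, the haem oxygenase Hmox2 at 52.7 and the biliverdin reductase Blvra at 13.8. Summed lists of other blood cells ranged over animals from 2.11 to 3.23 CPM for platelets, 1.22 to 2.20 for neutrophils and 2.74 to 4.75 for B cells, in each group overlapping saline. Each sum was led by 1 gene that was found across the brain labels, Itga2b with 1886 UMIs, Camp with 1192 and Ighm with 3549, the last highest in microglia at 40.1 CPM. Of the narrower markers, S100a9 gave 6 UMIs, Ltf 8, Gp9 31 and Cd79b 32, so these sums do not measure the blood cells themselves.

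The genes most alike haemoglobin over animals varied less than it did. The 5 highest over the 17 animals, by Pearson's r of log2(CPM + 1) with the summed members among 16093 genes, were Mybl1 (0.841), Agtrap (0.821), Arl6ip6 (0.818), Sema4g (0.809) and Caprin2 (0.807). Agtrap ran from 0.851 to 1.86 CPM and Mybl1 from 2.22 to 3.66 CPM. Without the 6 highest nuclei the order changed to Shh (0.806), Caprin2 (0.801), Sema4g (0.797), Mybl1 (0.785) and Agtrap (0.7755). Over the sums of the 7 labels the most alike were Vtn (0.997), Ly6a (0.996), Vwf (0.990), Mgp (0.988) and Ogn (0.987), and these are set by the vascular label. These lists are descriptions with no test.

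Measures of library quality were set beside Hbb-bs, on log2(CPM + 1) over the 17 animals, in 4 relations with permutation p adjusted over the 4. The relation to the summed choroid plexus list had r = 0.539 (permutation p = 0.0237, adjusted 0.0949) and rho = 0.169, and r fell to 0.331 without saline 3 and anti-TfR:Malat1 6, so it rests on those animals. The median UMIs per nucleus gave r = -0.468 (permutation p = 0.0570, adjusted 0.114), rho = -0.478 and -0.264 without the 2 farthest animals. Mitochondrially encoded RNA gave r = -0.402 (permutation p = 0.108, adjusted 0.144), rho = -0.368 and -0.430 without the 2 farthest. The share of nuclei with the vascular label gave r = 0.128 (permutation p = 0.631, adjusted 0.631) and rho = 0.387, and r rose to 0.466 without saline 1 and anti-TfR:Malat1 1. None passed after adjustment. After centring within batches r was 0.575, -0.361, -0.282 and 0.476 in that order. Their part in the level of haemoglobin was not tested.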

How the data were processed

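Single-nucleus libraries of 17 animals were analysed from the matrix of UMI counts deposited by the authors, whole numbers per gene and nucleus that are not normalized, with the deposited label, batch and doublet call of each nucleus. Cell Ranger 6.0.1, Seurat 4 and the build mm10 are named in the submitters' processing notes. The prediction score deposited with each label is a fraction from 0 to 1. Those sources do not state the labels' reference, the doublet caller, the nucleus filters or whether introns were counted. The authors' 47758 doublet calls (16.8%) were kept in. Of the metadata columns 11 were not used.

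The members and gene lists were chosen with earlier results of these data known. Always named were the members, the 3 highest genes of the listed sets that are described, and the 5 genes most alike over animals and over labels. UMIs were summed per animal, or per animal and label with 20 or more nuclei, and tested with edgeR 4.0.16 in R 4.3.3 (filterByExpr, TMM, glmQLFTest, two-sided, Benjamini-Hochberg over all genes tested, threshold 0.05), with all 17 animals in 1 fit. DESeq2 1.42.0, other size factors, filters, nuclei and blocks, and leaving out each animal were alternatives. The fits were tested on simulated data. Exact permutations (scipy 1.17.1) count the smaller tail for both sides. Intervals are exact Poisson or Clopper-Pearson at 95% and cover counting error only. P-values measure only the spread between the libraries, called animals here, which may be technical.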

Additional observations from a re-analysis of the deposited data

Results flagged for a closer look

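In the anti-TfR:Malat1 group of 6 animals, replicate 6 lay apart from the others in 6 measures, its gap to the next animal being more than 0.625 of the range of the group. Its Hba-a1 level was 1.23 CPM with 0.262 in the next animal, Hba-a2 was 1.05 with 0.306, and Hbb-bs was 4.01 with 1.08. Its summed level was 6.84 CPM with 1.80 in the next, and 4.63 with 1.35 when the nuclei of 10 or more haemoglobin UMIs were left out. A haemoglobin UMI was found in 1.89% of its nuclei and in 0.549% of the next. These measures overlap, and of 21 tested in groups of 4 or 6 animals chance marks about 1 in 20.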

How the results depend on the processing

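No haemoglobin gene passed the threshold between treatments over all nuclei in any alternative. The permutation within batches could not pass it in any comparison. The permutation over all animals could not pass it for OTV:Malat1 against saline. Against saline the change of Malat1 ASO was negative in all 72 refits. OTV:Malat1 against saline turned negative without the 6 highest nuclei (Hba-a1 -0.29, Hbb-bs -0.0538), in the difference of log2(CPM + 1) for Hba-a1 (-0.00095) and within batches (Hba-a1 -0.26, Hba-a2 -0.0866, Hbb-bs -0.30). Leaving out 1 animal at a time gave, against saline, -3.22 to 1.16 for Hba-a1, -1.77 to 1.30 for Hba-a2, -2.34 to 1.16 for Hbb-bs and -2.23 to 1.71 for Hbb-bt in OTV:Malat1, and -1.74 to 0.19 for Hbb-bt in anti-TfR:Malat1. Against anti-TfR:Malat1 it gave in OTV:Malat1 -1.81 to 2.73, -0.53 to 2.62, -1.26 to 2.61 and -1.45 to 2.46 in the same order. Without OTV:Malat1 2 both comparisons of OTV:Malat1 turned negative for all 4 genes. Of the log2 fold refits of OTV:Malat1, 12 of 68 against saline and 4 of 76 against anti-TfR:Malat1 were negative. The cause was not tested.

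With the replicate block, the number in the titles as a block, 0 members were called in each comparison, and Hbb-bs changed by -1.41, -1.55, 1.08 and 2.64 in the 4 comparisons. With batch as a block they were -1.49, -1.15, 0.57 and 1.72. Same-numbered animals of saline, Malat1 ASO and, for numbers 1 to 3, anti-TfR:Malat1 also shared a batch. Their deviations over genes correlated from -0.0228 to 0.44, and those of same-numbered animals in different batches from -0.344 to 0.306. Since not every pair was above 0.1, the number was not taken as a pairing. The 5 calls of labels against neurons became 9 with no filter, 10 without the authors' doublets, 2 in nuclei of 1000 or more UMIs and 3 without the 6 highest nuclei, partly because different members passed the filter. Depth limits the rare genes most, since Hbb-bt gave 263 UMIs in all and none in 5 animals. A batch holds 1 or 2 animals of a group, and the pairs are near-identical copies.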
